A study of Mus musculus with 3 samples.

Results

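The cytosolic ribosomal protein genes code for the proteins of the ribosome that translates nuclear-encoded mRNA. They were taken here by symbol, as every gene named Rpl or Rps followed by a digit, Rplp or Rpsa, without the Rps6k kinases and without names carrying -ps, and 86 of the 32285 genes in the count tables met this rule. The tables hold single-nucleus RNA-seq of mouse prefrontal cortex with 1 library in each of 3 groups. The C57BL/6 library came from wild-type C57BL/6 mice, with tissue of 5 animals pooled, and the Nav1 KO library from C57BL/6 mice in which CRISPR deleted the end of exon 1 of Nav1 and brought in an early stop codon, with tissue of 4 animals pooled. The BTBR library came from the inbred strain BTBR T<+> Itpr3<tf>/J, for which no number of animals and no Nav1 genotype is given. All animals were males of 6 to 8 weeks, no treatment is named in the labels of these samples, and nuclei of neurons and of other cells, sorted by NeuN, were profiled with 10x Genomics 3′ chemistry. Because each group is 1 library, no difference between groups could be tested, and all intervals given here are 95% intervals of counting error alone.

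The ribosome has a large subunit, which forms the peptide bonds, and a small subunit, which reads the codons. Each holds ribosomal RNA and a set of proteins present as single copies, apart from the stalk of the large subunit, where several copies of P1 and P2 sit on P0 and recruit elongation factors. The mRNAs of these proteins are among the most abundant of the cytoplasm, and most begin with a run of pyrimidines, the 5′ terminal oligopyrimidine or TOP motif, through which their translation follows growth signals. A nucleus holds only newly made copies on their way out, whereas cytoplasm that stays attached to a nucleus carries mature ones together with mitochondria.

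Short stretches around the start of transcription are shown for some of the genes on which the results turn, with their runs of C and T. Each runs from 15 bases before to 15 bases from the start on the gene's own strand, taken from RefSeq on GRCm38.p6, with the longest run of C and T in capitals. The first 4 are genes whose levels hardly followed, or for Rplp0 closely followed, depth and mitochondrial counts, and the last 5 are genes that stood apart between libraries.
Rpl6 (chr5:121204486-121204515, plus strand): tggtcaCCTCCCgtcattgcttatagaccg
Rpl15 (chr14:18270972-18271001, minus strand): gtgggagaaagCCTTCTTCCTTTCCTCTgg
Rps27 (chr3:90213634-90213663, minus strand): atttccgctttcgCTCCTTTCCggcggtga
Rplp0 (chr5:115559452-115559481, plus strand): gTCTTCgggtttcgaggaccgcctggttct
Rpl14 (chr9:120571502-120571531, plus strand): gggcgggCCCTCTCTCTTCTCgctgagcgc
Rpl27 (chr11:101442230-101442259, plus strand): acgctctgTTCCTgtctgctgctcgtgctg
Rps12 (chr10:23787195-23787224, minus strand): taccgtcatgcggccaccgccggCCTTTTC
Rpl36al (chr12:69184053-69184082, minus strand): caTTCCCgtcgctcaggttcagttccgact
Rpl41 (chr10:128549154-128549183, minus strand): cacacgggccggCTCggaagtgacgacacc

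RefSeq starts were matched for 66 of the 86 genes. A run of at least 8 letters that are C or T on the gene's strand lay in the window of 25 of them (37.9%), against 11.8% of the 20267 genes of the tables with a start. For runs of at least 5 letters the shares were 69.7% and 47.4%. The run was 17 letters long in Rpl15 and 6 in Rpl6, and 21 in Rpl7a, a protein of the large subunit. The capitals mark letters in a window and not a shown TOP motif. Of the runs printed above, those of Rpl15, Rps27 and Rpl14 crossed the start. Those of Rpl6, Rplp0, Rpl27, Rpl36al and Rpl41 ended before it, and that of Rps12 began after it. No start was matched for Rplp1 or Rpl29.

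Nuclei with at least 200 genes and under 10% of their counts on genes of the mitochondrial genome (mt- genes) were kept, which left 14630 C57BL/6, 14056 Nav1 KO and 14778 BTBR nuclei. Kept nuclei held 38704723, 50965774 and 48948184 counts of unique molecular identifiers (UMIs), with medians of 2074, 2754 and 2510.5 per nucleus, so the C57BL/6 nuclei were the shallowest. Between 61 and 71 barcodes were shared by each pair of libraries. Nav1 was counted at 345 CPM (counts per 1000000 counts of a library) in C57BL/6, 264 in Nav1 KO and 146 in BTBR, and reads counted near the 3′ end do not check a deletion within exon 1. Although the labels name neurons, 2071, 3675 and 2830 kept nuclei lay in clusters led by markers of other cells, numbers that the NeuN sort can set. Clusters with striatal medium spiny neuron markers held 11.7%, 3.83% and 6.16% of the nuclei and clusters with olfactory bulb mitral or tufted cell markers 0.294%, 4.11% and 2.57%, so the libraries differed in these cells.

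Ribosomal protein genes took under 0.5% of the counts. Their summed share was 0.488% (0.486 to 0.490) in C57BL/6, 0.459% (0.457 to 0.461) in Nav1 KO and 0.481% (0.479 to 0.483) in BTBR. The median nucleus held 10, 12 and 11 of their UMIs, from 9, 11 and 10 different genes. At an equal depth of 1000 UMIs, drawn at random from each nucleus, the means were 5.20, 5.13 and 5.07 UMIs, and 2394, 1249 and 2096 nuclei were too shallow to enter. No UMI of the set was found in 36, 17 and 20 of the kept nuclei. For comparison, transcripts known to stay in the nucleus, led by Malat1, took 29.8%, 33.6% and 29.5% of the counts, and the 13 mt- genes 0.780%, 0.731% and 0.606%.

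Genes of the large subunit supplied most of the counts. The 48 large subunit genes stood at 2715, 2631 and 2758 CPM in C57BL/6, Nav1 KO and BTBR, with the counts of the kept nuclei of a library as the denominator. The 33 small subunit genes stood at 1987, 1813 and 1894 CPM. The 3 stalk genes Rplp0, Rplp1 and Rplp2 together stood at 155, 126 and 139 CPM, lower in both other libraries than in C57BL/6. Within the stalk, Rplp1 had 91.7, 66.9 and 80.0 CPM, Rplp2 39.8, 37.0 and 35.8 CPM, and Rplp0 23.7, 22.1 and 23.0 CPM. The ranges of Rplp1 did not overlap between libraries, while those of Rplp0 did.

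The most counted gene was Rpl6, of the large subunit, at 208 CPM (204 to 213) in C57BL/6, 260 (255 to 264) in Nav1 KO and 258 (253 to 262) in BTBR. Rps27, a small subunit protein with a zinc finger, followed with 187, 145 and 161 CPM. Rpl13 and Rpl27a, both of the large subunit and also among the most counted, had 120, 112 and 163 CPM and 136, 115 and 147 CPM. The counts are of 3′ tags and were not scaled for length, so this is an order of counts and not of molecules.

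At the other end stood the paralogs made in few tissues. Rpl10l, the testis copy of Rpl10, had no count in any library, which allows up to 3 counts in each. Rpl39l, also known from testis, had 5 counts over the 3 libraries and Rpl3l, the heart and skeletal muscle copy of Rpl3, had 30. Their partners were counted in every library, Rpl10 at 66.6, 62.5 and 47.7 CPM, Rpl39 at 29.1, 27.8 and 28.0 CPM and Rpl3 at 55.9, 43.4 and 44.3 CPM. Other paralogs were not rare. Rpl22l1 (66.3, 63.6 and 69.6 CPM) was counted above Rpl22 (40.1, 35.3 and 34.0 CPM) in all 3 libraries. Rpl36al had 26.0, 31.4 and 47.0 CPM beside 16.2, 18.05 and 17.96 CPM for Rpl36a. Rps27l and Rps27rt stayed at 4.34 to 5.86 CPM and 2.39 to 3.15 CPM, far under Rps27. Rps19bp1, which codes for a protein that binds Rps19 and not for a ribosomal protein, met the rule by its symbol and had 7.31 to 8.31 CPM, and Rpl7l1, a relative of Rpl7 found in ribosome assembly, had 13.5 to 13.9 CPM. Reads of near-identical copies, of which the genome holds many as pseudogenes, could be assigned to either copy, so single values of paralogs are uncertain. The 5 rows named as pseudogenes with -ps held 475 counts in all.

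The share of counts on ribosomal protein genes was highest in the shallowest nuclei. In C57BL/6 it was 0.793% from 500 to under 1000 UMIs, 0.609% from 1000 to under 2000, 0.475% from 2000 to under 4000, 0.408% from 4000 to under 8000 and 0.418% at 8000 or more. In Nav1 KO the same steps gave 0.927%, 0.671%, 0.495%, 0.397% and 0.382%. In BTBR they gave 0.833%, 0.644%, 0.469%, 0.421% and 0.459%. The share was therefore lower at each step up to the class ending at 8000 UMIs in all 3 libraries, and beyond it was lower again in Nav1 KO and higher in C57BL/6 and BTBR. The shallowest nuclei exceeded the deepest by 1.90-fold (1.86 to 1.94) in C57BL/6, 2.43-fold (2.37 to 2.48) in Nav1 KO and 1.81-fold (1.78 to 1.85) in BTBR.

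Shallow nuclei also carried more mitochondrial counts. The mt- genes took 1.73%, 1.39% and 1.43% of the counts from 500 to under 1000 UMIs in C57BL/6, Nav1 KO and BTBR, against 0.511%, 0.540% and 0.530% at 8000 UMIs or more. With both depth classes weighted to the same mixture of mitochondrial shares, the excess of the shallow nuclei was 1.48-fold, 2.15-fold and 1.47-fold. Among nuclei under 0.5% mt- counts it was still seen, with 0.660%, 0.805% and 0.677% from 500 to under 1000 UMIs and 0.369%, 0.336% and 0.395% at 8000 or more.

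The ribosomal protein genes were also ordered along the mitochondrial share. In C57BL/6 they took 0.403% of counts in nuclei under 0.5% mt- counts, 0.497% at 0.5 to 1%, 0.601% at 1 to 2%, 0.763% at 2 to 5% and 1.23% at 5 to 10%. In Nav1 KO the values were 0.384%, 0.487%, 0.560%, 0.692% and 1.26%. In BTBR they were 0.413%, 0.511%, 0.588%, 0.856% and 1.70%. Every step was higher than the one before it in all 3 libraries, and the last over the first was 3.07-fold (2.998 to 3.13) in C57BL/6, 3.29-fold (3.23 to 3.36) in Nav1 KO and 4.11-fold (4.02 to 4.20) in BTBR. The last class held 371, 408 and 276 nuclei, and a minority of them carried much of its sum. The share of the median nucleus was 0.388%, 0.380% and 0.394% in the first class and 0.888%, 0.729% and 0.853% in the last, so it was also higher but by less, and BTBR did not have the widest gap. The share exceeded 2.35%, 2.56% and 3.66% in the upper 10% of nuclei of the last class. The 772, 567 and 460 nuclei left out at 10% or more continued the order, with 5.29%, 4.73% and 8.38% of their counts on ribosomal protein genes. How much attached cytoplasm or free RNA entered these values was not tested.

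**Figure D1:**
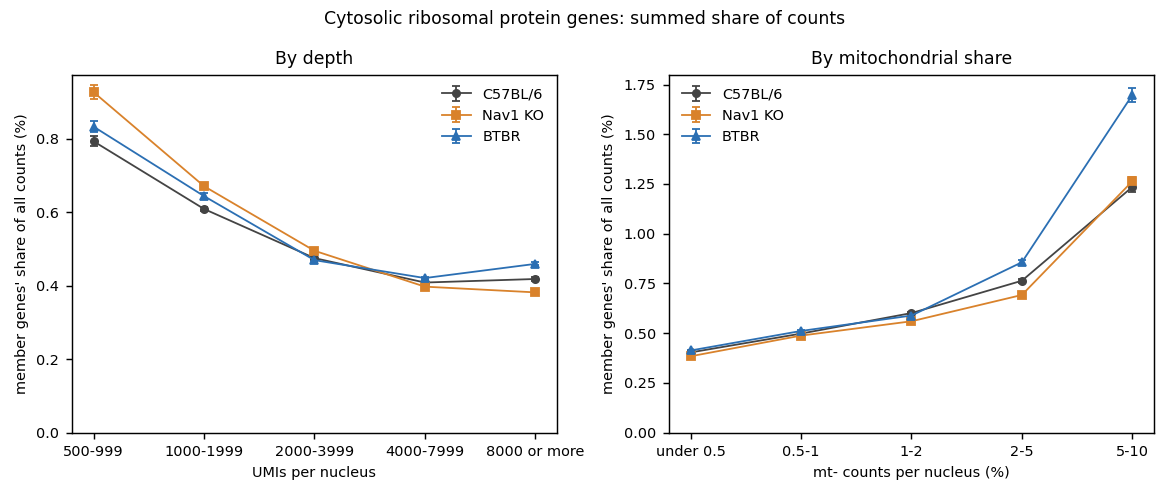
Summed share of all counts taken by the 86 ribosomal protein genes (percent, y axis from 0) by class of UMIs per nucleus (left) and of mt- counts per nucleus (right), 1 line for each library, with 95% counting intervals. The lines descend from 0.793 to 0.927% in the shallowest nuclei to 0.382 to 0.459% in the deepest, and climb from 0.384 to 0.413% under 0.5% mt- counts to 1.23 to 1.70% at 5 to 10%.

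Nearly every gene of the set took part in the difference between the sums, on which all ratios of single genes rest. Of the 86, 80 had at least 10 counts in both mitochondrial classes of each library, and all 80 had a ratio of nuclei at 5 to 10% over nuclei under 0.5% above 1 (geometric mean of the 3 libraries). Their median ratio was 3.67, against 0.989 for the 7624 genes counted as often. The ratio was over 2 for 73 of the 80 and for 9.02% of all genes. Between the depth classes, 81 genes could be compared, the median ratio of shallow over deep was 2.23 against 1.15 for 10390 genes, and 51 of the 81 exceeded 2, against 11% of all genes.

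The stalk gene Rplp1 was at the top of both orders. Rplp1 was 6.58-fold, 7.30-fold and 9.97-fold higher in the nuclei rich in mt- counts of C57BL/6, Nav1 KO and BTBR, a geometric mean of 7.82. Rps29, a zinc-finger protein of the small subunit, came next with 7.21, then Rpl26 with 6.39 and Rpl39 with 5.93, both proteins of the large subunit. Rplp0 had 5.37 and Rplp2 3.93. Between the depth classes Rplp1 (3.63) and Rplp0 (3.58) led, followed by Rps29 (3.11).

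A few genes hardly followed either measure. Rpl6, the most counted gene, had a mitochondrial ratio of 1.42, 1.25 and 1.47 in the 3 libraries and a depth ratio of 1.20, 1.29 and 1.11. Rpl15, which sits on chromosome 14 beside and partly over Nkiras1, had mitochondrial ratios of 1.82, 1.62 and 1.42 and depth ratios of 1.09, 1.37 and 0.873. Rps27 had geometric means of 1.71 and 1.23. Rpl7l1, which is not a structural protein of the mature ribosome, had a mitochondrial ratio of 1.41 and a depth ratio of 1.55. The former rests on 39 counts in the nuclei at 5 to 10% mt- counts. Rpl6, Rpl15 and Rps27 were thus among the lowest in both orders.

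**Figure D2:**
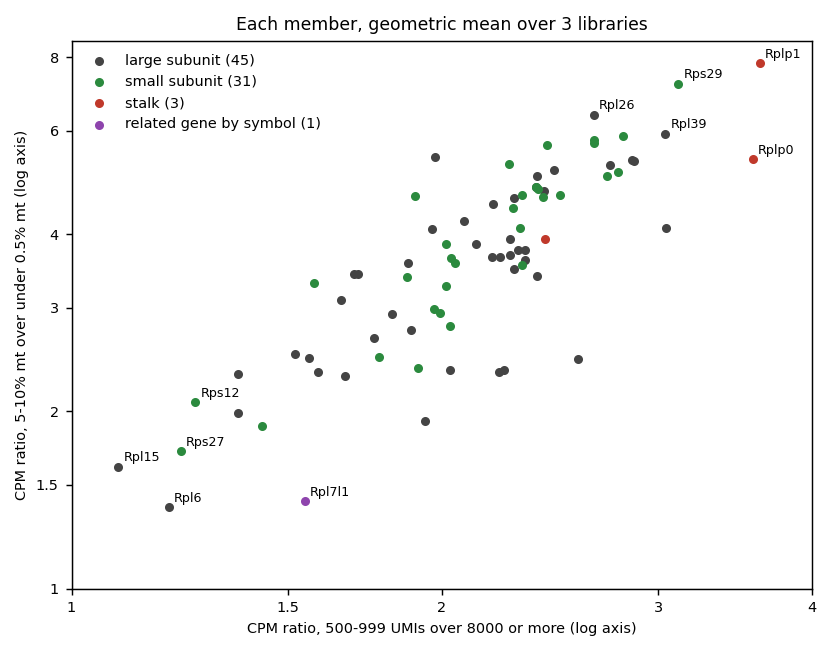
Each point is 1 ribosomal protein gene with enough counts in all classes. The x axis gives its CPM ratio of nuclei with 500 to under 1000 UMIs over nuclei with 8000 or more, and the y axis that of nuclei with 5 to 10% mt- counts over nuclei under 0.5% (geometric means of 3 libraries, log axes). The points form 1 band from Rpl6 and Rpl15 at the lower left to Rplp1 at the upper right, at 3.63 and 7.82.

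Features of the gene models in GENCODE M21, looked at after the ratios were known, were only weakly ordered with them. Over the 80 genes, which share libraries and nuclei, Spearman's rho of the mitochondrial ratio was 0.0442 with the span of the gene, -0.253 with the bases annotated as exon in any transcript and -0.316 with the percent of the span that is exon. The 10 genes with the lowest ratios had a median of 77.7% of their span annotated as exon and the 10 with the highest 43.5%. In Rps13, a small subunit gene with a ratio of 1.89, and in Rpl22l1, with 1.93, annotated exons covered 100% of the span, and in Rplp1 39.6%. Genes with a snoRNA gene in their span, 30 of the 80, had a median ratio of 3.76 and the other 50 one of 3.67.

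Other genes of the translation machinery followed in part. Fau and Rack1 code for ribosomal proteins under other names. Fau, which codes for the small subunit protein eS30 fused to a ubiquitin-like domain, was 4.50-fold, 5.17-fold and 6.35-fold higher at 5 to 10% mt- counts than under 0.5% in C57BL/6, Nav1 KO and BTBR, and Rack1, a scaffold protein of the small subunit, 1.94-fold, 2.22-fold and 2.81-fold. The 34 elongation and initiation factors, led in counts by Eif1, Eif4g1 and Eif4a2, gave 1.5, 1.72 and 1.71. Eif4g1, the scaffold of the cap-binding complex, had 0.981, 0.976 and 1.14. The 30 factors of ribosome biogenesis, which act in the nucleolus and are led in counts by Ncl, Nop56 and Rrp1, gave 0.993, 1.04 and 1.09. The 78 mitochondrial ribosomal protein genes, led in counts by Mrps5, Mrpl41 and Mrps26, gave 1.14, 1.23 and 1.13, while Mrps5 itself had 0.848, 0.782 and 0.682. Among 14 detected snoRNA hosts, led by Gas5, Snhg20 and Snhg9, the sum gave 1.38, 1.32 and 1.37. Gas5, itself a transcript with a TOP motif, had 1.58, 1.17 and 1.57.

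Lists outside the translation machinery give the scale, and the genes named as leading a list are those with most counts. The 93 nuclear-encoded genes of oxidative phosphorylation, led by Ndufaf4, Ndufa10 and Atp5b, were 2.16-fold, 2.33-fold and 2.39-fold higher in sum, with a median gene ratio of 2.43. Of these leaders, Ndufaf4 had 0.841, 1.40 and 0.982 and Ndufa10 1.12, 0.881 and 0.835. The sum of 28 other abundant short mRNAs, led by Snap25, Ckb and Ndrg4, was 1.85-fold, 2.02-fold and 1.89-fold higher, with a median of 2.10. Snap25 (0.737, 0.673 and 0.729) and Ndrg4 (0.908, 0.722 and 0.812) were themselves lower. The 10 transcripts kept in the nucleus, led by Malat1, Meg3 and Snhg11, were lower, at 0.816, 0.789 and 0.767. The mt- genes, led by mt-Co3, mt-Atp6 and mt-Cytb, gave 32.0, 36.9 and 32.9, which the classes themselves fix. Between the depth classes the oxidative phosphorylation genes gave 1.67, 2.27 and 1.60, and the short mRNAs 1.57, 2.08 and 1.48. The transcripts kept in the nucleus gave 0.911, 0.819 and 0.705, and the mt- genes 3.40, 2.57 and 2.69. The excess in shallow nuclei was thus not particular to the ribosomal protein genes.

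To compare cell types, nuclei were clustered without the ribosomal protein and mt- genes, which gave 13 clusters. A cluster was named by the marker list that led it if the median fold of that list was at least 2. Clusters 0, 1, 2 and 5 were excitatory neuron-like, 3 inhibitory neuron-like with cortical interneuron markers such as Sst and Adarb2, and 4 striatal medium spiny neuron-like. Clusters 6, 8 and 9 were astrocyte-like, microglia-like and oligodendrocyte-like, 7 and 10 meningeal fibroblast-like, 11 mitral or tufted cell-like and 12 olfactory ensheathing glia-like. Cluster 8 also held oligodendrocyte precursor markers, and clusters 7 and 10 also endothelial and pericyte markers. The excitatory clusters had no list marker among their leading genes. The median fold of their list was 1.24 to 1.57, under 2, so they were named by having more Slc17a7 and Slc17a6 than Gad1 and Gad2. The doublet caller marked at most 3 nuclei in a library and so did not work. The excitatory marker Slc17a7 stood at 143 to 422 CPM in the non-neuronal clusters, against 748 to 968 CPM in the excitatory ones, and whether free RNA or doublets put it there was not tested.

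Inhibitory neuron-like nuclei had the highest share of the classes with over 500 nuclei in each library. The ribosomal protein genes took 0.737% (0.725 to 0.749) of their counts in C57BL/6, 0.665% (0.656 to 0.674) in Nav1 KO and 0.669% (0.661 to 0.678) in BTBR. Smaller classes reached this level in single libraries. Microglia-like nuclei had 0.664% (0.654 to 0.675) in Nav1 KO, and 15 olfactory ensheathing glia-like nuclei had 0.864% in C57BL/6. In excitatory neuron-like nuclei the shares were 0.451%, 0.400% and 0.433%. Inhibitory over excitatory was 1.63-fold (1.61 to 1.66), 1.66-fold (1.64 to 1.69) and 1.54-fold (1.52 to 1.57). Inhibitory nuclei were shallower, with medians of 1742, 1916 and 1740 UMIs against 2153, 3175.5 and 2743.5, and carried more mt- counts, 1.20%, 1.17% and 0.959% against 0.670%, 0.502% and 0.451%. Within nuclei under 0.5% mt- counts the shares were 0.685%, 0.612% and 0.636% against 0.380%, 0.362% and 0.389%, a gap at least as wide in ratio. Within nuclei of 1000 to under 4000 UMIs the gap was narrower, at 1.49-fold against 1.61-fold over all kept nuclei (geometric means of the 3 libraries). The median nucleus had 0.600%, 0.559% and 0.587% against 0.444%, 0.395% and 0.415%.

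Striatal medium spiny neurons, which are also GABAergic, had a lower share than the inhibitory cluster. Cluster 4 had 0.474%, 0.435% and 0.443% in C57BL/6, Nav1 KO and BTBR, close to the excitatory nuclei, with Slc17a7 at 394 CPM beside its own markers. In a finer clustering the medium spiny neuron-like cluster, with Slc17a7 at 101 CPM, had 0.561%, 0.483% and 0.476%, which lay above the share of the whole library in C57BL/6 and Nav1 KO and below it in BTBR, whereas cluster 4 lay below it in all 3. Mitral or tufted cell-like nuclei had 0.378%, 0.421% and 0.442%, with 43 nuclei in C57BL/6. Excitatory cluster 2, led by Otof and Nectin3, was as low, at 0.379%, 0.343% and 0.372%.

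Most non-neuronal nuclei lay between. The microglia-like cluster, which also held oligodendrocyte precursor markers, had 0.619%, 0.664% and 0.601%. Astrocyte-like nuclei had 0.677%, 0.548% and 0.573%, and oligodendrocyte-like nuclei 0.510%, 0.518% and 0.529%. Meningeal fibroblast-like cluster 7 had 0.583%, 0.567% and 0.575%, and cluster 10, whose nuclei were shallow at medians of 731.5, 1080 and 916.5 UMIs, 0.698%, 0.659% and 0.617%. Olfactory ensheathing glia-like cluster 12 had 0.864%, 0.659% and 0.537%, from 15, 228 and 57 nuclei. Non-neuronal over neuronal nuclei was 1.28-fold, 1.38-fold and 1.27-fold. Among astrocytes the summed share was 0.447%, 0.392% and 0.410% under 0.5% mt- counts and 2.25%, 2.43% and 3.74% in the 41, 63 and 26 nuclei at 5 to 10%. The median astrocyte nucleus had 0.433%, 0.398% and 0.395% against 1.26%, 0.856% and 0.816%, so a minority of nuclei carried the sums. In excitatory nuclei the summed shares were 0.380%, 0.362% and 0.389% against 1.05%, 0.749% and 1.56%, and the medians 0.372%, 0.360% and 0.372% against 0.945%, 0.636% and 1.25%. By medians the BTBR gap was wider in excitatory than in astrocyte-like nuclei, the reverse of the sums.

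**Figure D3:**
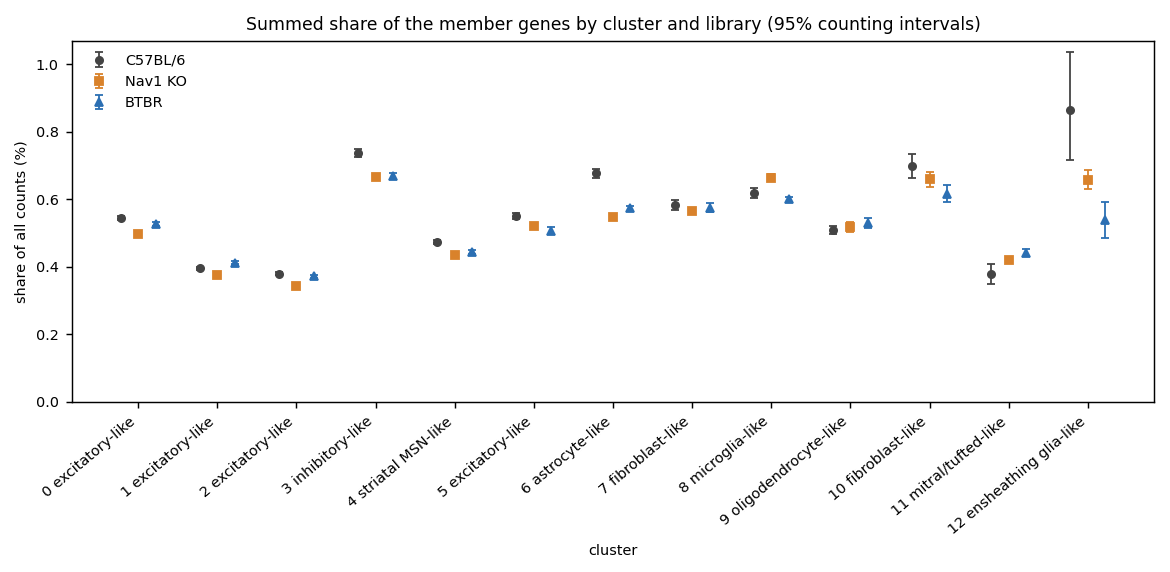
Summed share of counts on ribosomal protein genes (percent, y axis from 0) in each of 13 clusters, 1 point for each library with its 95% counting interval. Inhibitory cluster 3 lies at 0.665 to 0.737% and excitatory cluster 2 at 0.343 to 0.379%. On the percent axis the points of 1 cluster lie furthest apart in clusters 6 and 12, the latter with 15 nuclei in C57BL/6.

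A finer clustering split cluster 8. The microglia-like part then had 0.598%, 0.576% and 0.589%, with overlapping intervals in every pair of libraries. The oligodendrocyte precursor-like part had 0.706% (0.663 to 0.752) in C57BL/6, 1.11% (1.08 to 1.15) in Nav1 KO and 0.758% (0.728 to 0.788) in BTBR, from 132, 253 and 240 nuclei with 1.98%, 1.79% and 1.47% mt- counts. The intervals of the other libraries overlapped, and that of Nav1 KO lay above both. The median nucleus was closer, with 0.675%, 0.763% and 0.628%, so part of the nuclei carried the sum of Nav1 KO. The same clustering set apart excitatory-like nuclei of low depth, with medians of 852, 869 and 754 UMIs, in which the share was 0.664%, 0.758% and 0.751%. Rplp1, Rps29, mt-Atp6, mt-Co1, Fth1 and Actb were among the 10 leading genes, and no list marker was. The striatal medium spiny neuron list had a median fold of 1.21 and the excitatory list 1.12. The name therefore rests on Slc17a7 and Slc17a6 alone.

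Single genes followed the class of the nucleus together. Among genes with at least 20 counts in the class in each library, all 80 ribosomal protein genes were higher in inhibitory nuclei than in all other nuclei, with a median ratio of 1.59 against 1.10 for all genes, of which 67.2% were higher. The 3 highest were Rpl24 (2.00), Rps27a (1.90), which is made as a fusion with ubiquitin, and Rpl23 (1.89). All 83 were lower in excitatory nuclei, with a median of 0.736 against 0.949, where 59.8% of all genes were lower. The nearest to 1 were Rps19bp1 (0.966), Rps18 (0.949) and Rpl15 (0.948).

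Glia and fibroblasts had other leading genes. In the microglia-like cluster all 80 were higher, with a median of 1.36, against 57.4% of all genes. Rpl18 (1.88) and Rps29 (1.67) were among the highest, Rps29 with 1.52 in C57BL/6, 2.24 in Nav1 KO and 1.36 in BTBR. That cluster also held oligodendrocyte precursor-like nuclei, which had the higher summed share in the finer clustering in every library. Single genes were not compared between its parts, so these ratios are not of microglia alone. In fibroblasts 73 of 79 were higher, with a median of 1.33, against 51% of all genes, led by Rpl18 (1.89), Rplp0 (1.79) and Rplp1 (1.74). In astrocytes 74 of 79 were higher, with a median of 1.31, against 38.6% of all genes, led by Rpl36a (1.76), Rps29 (1.75) and Rplp1 (1.74). In oligodendrocytes 60 of 76 were higher, with a median of 1.11, against 45.6% of all genes, with Rps15 (1.33) and Rpl35 (1.30) among the highest. In striatal medium spiny neuron-like cluster 4, 10 of 80 were higher and the other 70 lower, with a median of 0.912, where 53.1% of all genes were lower. Rpl31 (1.31), Rps27 (1.16) and Rpl15 (1.09) were the highest there. Cluster 4 had Slc17a7 at 394 CPM. In the finer medium spiny neuron-like cluster, with 101 CPM, the summed share lay above the library in C57BL/6 and Nav1 KO, and single genes were not compared. In mitral or tufted cells 4 genes had enough counts, of which Rps12 (1.23), Rpl6 (1.10) and Rps13 (0.995) were the highest. These ratios set nuclei of different depth and mitochondrial share against each other, and the part of those measures was not tested.

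Across the 37 groups of a cluster in a library that held at least 50 nuclei, large and small subunit genes were ordered alike (Pearson r of log2 CPM 0.979). The sum of all ribosomal protein genes was ordered with the sum of the mt- genes (r = 0.876) and against the median UMIs (r = -0.745). The 37 points share 3 libraries and are no replicates. Single genes ranged from Rps27a (r = 0.964 with the sum) to Rpl6 (-0.0329) and Rpl15 (-0.0346). Among 3509 other genes of at least 50 CPM, the 10 most alike were Fau (0.914), Cox4i1 (0.905), mt-Co2 (0.886), mt-Co3 (0.883), mt-Nd1 (0.871), mt-Nd2 (0.870), mt-Co1 (0.861), mt-Nd4 (0.859), Gm42418 (0.852) and Eef1a1 (0.849). They include a subunit of cytochrome oxidase coded in the nucleus, 6 mt- genes and the elongation factor eEF1A1.

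Between libraries the summed share differed little. Nav1 KO over C57BL/6 was 0.941 (0.935 to 0.947), BTBR over C57BL/6 0.986 and BTBR over Nav1 KO 1.05. The first 2 comparisons share the C57BL/6 library. Within nuclei of 1000 to under 4000 UMIs the order of Nav1 KO and C57BL/6 was the opposite, at 1.04, as was that of BTBR and Nav1 KO, at 0.944. BTBR over C57BL/6 was 1.04 with the same mixture of mitochondrial shares and 1.01 with no mitochondrial limit. The sign of these small differences therefore depended on which nuclei were compared. They also rest on the denominator, in which Malat1 alone stood at 249842 CPM in C57BL/6, 297783 in Nav1 KO and 251593 in BTBR. Shares of the counts without Malat1 were not computed. These ratios therefore cannot tell a difference in ribosomal protein counts from one in Malat1 counts.

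Within clusters, Nav1 KO over C57BL/6 ran from 0.810 (0.790 to 0.830) in astrocyte-like cluster 6 to 1.07 in cluster 8 among clusters with at least 50 nuclei in both. In the finer clustering, the oligodendrocyte precursor-like part of cluster 8 was higher in Nav1 KO, at 1.11% against 0.706% in C57BL/6. Its microglia-like part was not, at 0.576% against 0.598%. The finer astrocyte-like cluster with Slc17a7 at 131 CPM had 0.647% in C57BL/6, 0.653% in Nav1 KO and 0.486% in BTBR. The finer astrocyte-like cluster with Slc17a7 at 526 CPM had 0.688%, 0.516% and 0.598%. A lower sum in Nav1 KO than in C57BL/6 was thus seen only in the latter. The clusters of cortical neurons, 0, 1, 2, 3 and 5, had 0.914, 0.953, 0.903, 0.903 and 0.944. BTBR over C57BL/6 ran from 0.846 in cluster 6 to 1.04 in cluster 1. The finer excitatory-like clusters that shared leading genes with cluster 1 were not higher in BTBR. They had 0.466%, 0.365% and 0.434% in BTBR, against 0.498%, 0.376% and 0.443% in C57BL/6. No marker list reached a median fold of 2 in them, so they too were named by Slc17a7 and Slc17a6. The last had the striatal medium spiny neuron list first, at 1.60, with Rgs9 among its leading genes, so it may be mixed. In cluster 6 the C57BL/6 nuclei were shallower than those of Nav1 KO and BTBR, with medians of 1621, 2175 and 2356 UMIs, and had more mt- counts, 1.33%, 1.05% and 0.890%, and the part of these in the difference was not tested.

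No single ribosomal protein gene stood 1.5-fold apart between Nav1 KO and C57BL/6. Of 83 genes with at least 200 counts in the pair and 20 in each library, 0 were higher and 0 lower by that fold, where 7.55% of all 13772 genes were higher and 4.98% lower. The median ratio of the 83 was 0.941 and that of all genes 0.965, and 58 of the 83 lay below 1, against 56.0% of all genes. Within nuclei of 1000 to under 4000 UMIs 2 genes, Rpl29 and Rpl41, were higher by over 1.5-fold, where 16.3% of all genes were past the fold in either direction, and within excitatory nuclei 2 others, Rplp1 and Rpl17, were lower, where 7.37% were past it. The extremes were Rpl41 (1.43), Rpl29 (1.40), Rpl6 (1.25), Rpl36al (1.21) and Rpl18 (1.18) above, and Rpl17 (0.697), Rplp1 (0.730), Rps12 (0.735), Rpl13a (0.742) and Rpl26 (0.750) below. Rpl41, a peptide of the large subunit rich in basic residues, was higher in Nav1 KO in 13 of 13 clusters. Rps12 and Rpl17 were lower in 13 of 13. Of these clusters, 11 for Rpl41, 12 for Rps12 and 10 for Rpl17 had at least 20 counts in each library.

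More genes of the set were past the fold in the comparisons with BTBR. Over C57BL/6, 2 of 83 were higher by 1.5-fold, where 9.94% of 13688 genes were, and 4 were lower, where 5.92% were. Over Nav1 KO, 0 of 83 were higher, where 4.24% of 14052 genes were, and 3 were lower, where 4.59% were. These counts are under the background of all genes, so the single genes that follow are a description and do not set the family apart. The median ratio of the set was 0.962 over C57BL/6 and 1.06 over Nav1 KO, against 1.04 and 1.07 for all genes.

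Rpl29, of the large subunit (chr9:106429454-106431568 of GRCm38, plus strand), stood furthest apart. It had 40.0 CPM (38.1 to 42.1) in C57BL/6, 56.0 CPM (54.0 to 58.1) in Nav1 KO and 12.1 CPM (11.1 to 13.1) in BTBR, from 1549, 2856 and 592 counts. BTBR lay far under both libraries of C57BL/6 background, with ratios of 0.302 (0.274 to 0.332) and 0.216 (0.197 to 0.236). The lower level was seen in all 12 clusters with counts in BTBR or C57BL/6 and in 13 of 13 against Nav1 KO. In clusters with at least 20 counts on both sides the ratio to C57BL/6 ran from 0.139 to 0.418, and in excitatory cluster 1, the deepest by median UMIs in C57BL/6, Rpl29 had 32.0, 48.0 and 11.7 CPM in C57BL/6, Nav1 KO and BTBR.

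Rpl27, Rpl14 and Rps12 were also lower in BTBR by the same fold. Rpl27, of the large subunit, had 58.1, 46.2 and 30.3 CPM in C57BL/6, Nav1 KO and BTBR, and its ratio to C57BL/6 was 0.522. It was lower than in C57BL/6 in 12 of 13 clusters, and by over 1.5-fold in all 10 with at least 20 counts in each library. Rpl14, of the large subunit and like Rpl29 on chromosome 9, had 41.8, 37.7 and 23.0 CPM. Its ratios were 0.550 to C57BL/6 and 0.609 to Nav1 KO. It was lower in 13 of 13 clusters in both comparisons, of which 9 and 10 had at least 20 counts in each library. Rps12, of the small subunit, had 126, 92.3 and 75.3 CPM. Its ratio was 0.600 to C57BL/6 and 0.816 to Nav1 KO, so that Nav1 KO lay between the other two. The next lowest, Rpl10, the X-linked protein that joins the large subunit last, had ratios of 0.717 and 0.764.

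Rpl36al and Rpl41 were higher in BTBR. Rpl36al, a copy of Rpl36a that overlaps the gene Gm49383, had 26.0, 31.4 and 47.0 CPM, and its ratio was 1.81 (1.68 to 1.95) to C57BL/6 and 1.499 to Nav1 KO, the latter just under the fold. It was higher than in C57BL/6 in 13 of 13 clusters, among 10 with enough counts from 1.22 to 2.44. Its partner Rpl36a had a ratio of 1.11. Rpl41 had 97.7, 139 and 149 CPM, with ratios of 1.53 to C57BL/6 and 1.07 to Nav1 KO, so here the C57BL/6 library was the one apart. Rpl13 (1.35), Rps27l (1.35) and Rpl36 (1.32) were next over C57BL/6, and Rpl13 (1.45), Rpl15 (1.32), Rpl27a (1.29) and Rpl23a (1.25) were next over Nav1 KO.

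**Figure D4:**
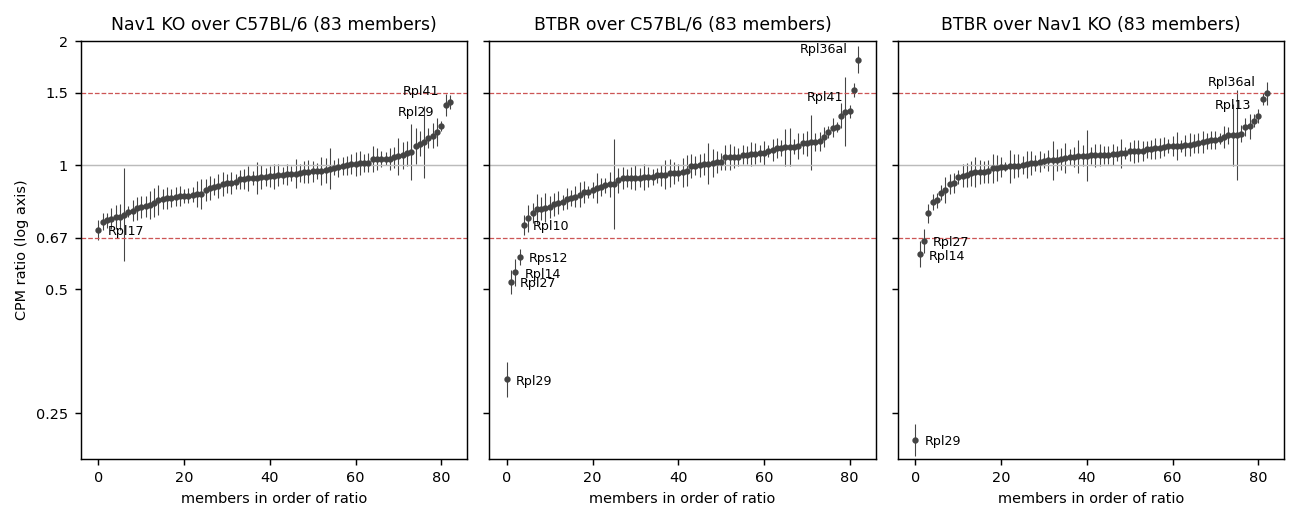
CPM ratio of each of 83 ribosomal protein genes between 2 libraries (log axis), in order of ratio, with 95% counting intervals. Dashed lines mark 1.5-fold. Rpl29 lies alone at 0.302 and 0.216 in the comparisons with BTBR, and no gene lies beyond 1.5-fold between Nav1 KO and C57BL/6.

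**Figure D5:**
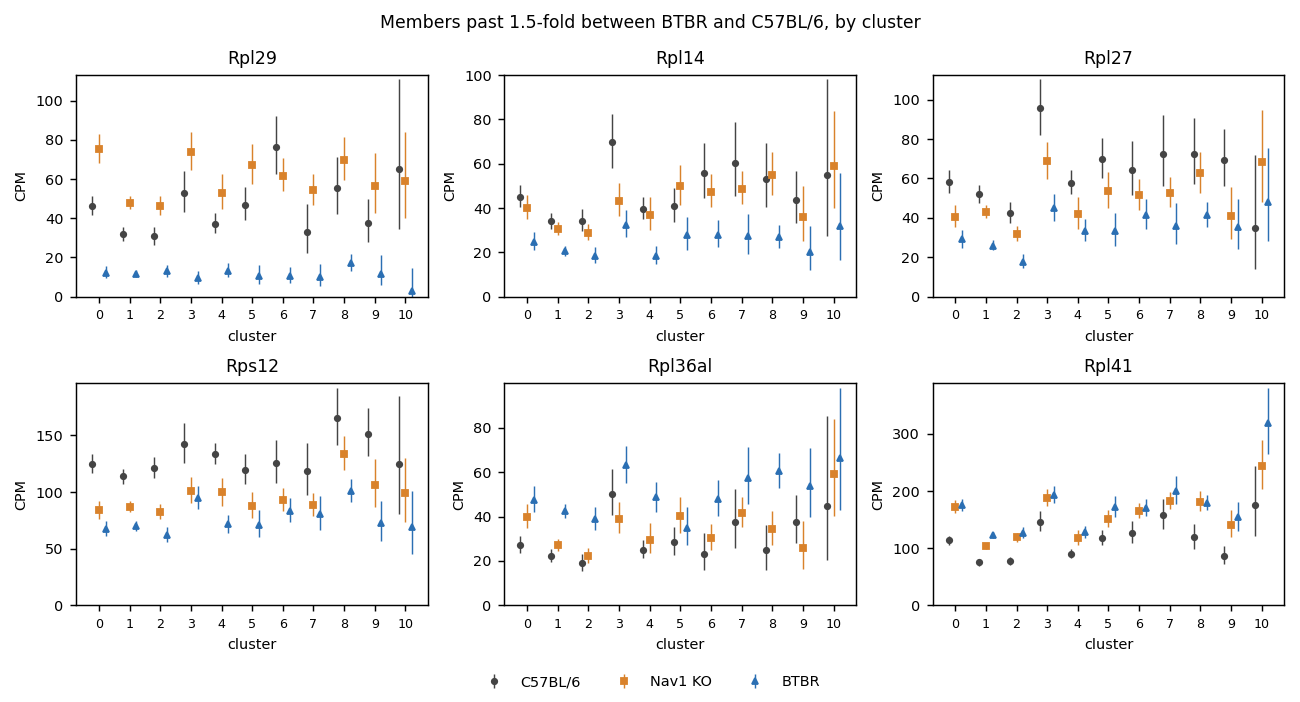
CPM of the 6 ribosomal protein genes past 1.5-fold between BTBR and C57BL/6, in clusters 0 to 10 and each library, with 95% counting intervals. Rpl29 is lowest in BTBR in every cluster shown, and for Rpl36al BTBR lies above C57BL/6 in each.

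The reads of all 3 libraries were aligned to mm10, a C57BL/6J genome. Sequence differences of BTBR from it, and reads that match a pseudogene as well as its parent, can change the counts of single genes of this family, and their part in the values of Rpl29, Rpl27, Rpl14, Rps12 and Rpl36al was not tested. With 1 library in each group, strain or genotype cannot be told apart from the library.

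Most other gene lists differed more between BTBR and C57BL/6 than the 0.986 of the ribosomal protein sum. BTBR over C57BL/6 was 1.01 for the translation factors, 0.963 for the biogenesis factors, 1.04 for the snoRNA hosts, 1.18 for the mitochondrial ribosomal proteins, 1.09 for oxidative phosphorylation, 1.20 for the short mRNAs, 0.777 for the mt- genes and 0.991 for the transcripts kept in the nucleus. Nav1 KO over C57BL/6 was 0.947, 0.835, 0.980, 1.09, 1.08, 1.17, 0.937 and 1.13 in the same order. These are ratios of sums, and the median gene lay on the other side of 1 in some lists. In Nav1 KO over C57BL/6 it was 0.827 for the transcripts kept in the nucleus, whose sum is mostly Malat1. In BTBR over C57BL/6 it was 0.982 for the translation factors and 0.936 for the snoRNA hosts. Of all 13688 genes, 9.94% were higher and 5.92% lower by over 1.5-fold in BTBR over C57BL/6. Past that fold were 6 of 78 mitochondrial ribosomal protein genes, all higher, and 5 of 13 mt- genes, all lower. So were 2 of 13 snoRNA hosts, 4 of 86 oxidative phosphorylation genes and 4 of 27 short mRNAs, all higher, 1 of 30 biogenesis factors and 1 of 10 transcripts kept in the nucleus, both lower, and none of the 34 translation factors.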

How the data were processed

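Single-nucleus libraries of C57BL/6, Nav1 KO and BTBR prefrontal cortex, 1 of each, were analysed. The deposited matrices hold raw UMI counts per gene and barcode, which the authors made with Cell Ranger 6.0.0 and mm10 (per the labels). Filtered barcodes were deposited, and whether intron reads were counted is not given in the sources used here. Such counts depend on the reference, so strain differences and near-identical copies can move reads between genes.

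Nuclei with at least 200 genes and under 10% mt- counts were kept, as in the study's methods. Counts were summed over nuclei and given as a share or CPM, with exact Poisson, Clopper-Pearson or conditional binomial intervals at the 95% level (counting error only). Gene ratios needed 200 counts in the pair and 20 in each library, and ratios between depth or mt- classes 10 counts in each class of each library. Nuclei were clustered with Seurat 5.3.0 in R 4.3.3 (2000 variable genes without ribosomal protein and mt- genes, 10 principal components, resolution 0.3). A cluster took the name of the marker list with the highest median fold in CPM plus 5, where that fold was at least 2. Other clusters were called excitatory neuron-like if Slc17a7 and Slc17a6 together had more CPM than Gad1 and Gad2, and otherwise inhibitory neuron-like. Clusters led by the cortical interneuron list were called inhibitory neuron-like. Scrublet ran in scanpy 1.11.5. Other values came from Python 3.11.15 with numpy 2.4.6, scipy 1.17.1 and pandas 2.3.3. Gene models were GENCODE M21 and all 86 genes matched.

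Named genes were the 5 with most counts, those under 20 counts, the 5 highest and lowest ratios of each pair, the 3 highest of each class, paralogs, the 3 highest of each list and the 10 most alike genes. Genes at the ends of the depth and mt- orders were named after their values were seen. The set, the lists and the alternatives were chosen with earlier results of these data known. Some genes that the rule names are not reported here. With 1 library in a group no test was run. On simulated counts with 200 genes changed 2-fold, the 1.5-fold rule found 100% of them in each pair and marked 0.0143% to 0.0293% of unchanged genes, for counting noise alone. The changed genes were drawn from genes counted above the lower limit of the rule. The 100% therefore does not cover genes near that limit.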

Additional observations from a re-analysis of the deposited data

Results flagged for a closer look

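The nuclei left out at 10% mt- counts or more were outside the comparisons and had a far higher share of counts on ribosomal protein genes than kept nuclei. It was 5.29% in C57BL/6, 4.73% in Nav1 KO and 8.38% in BTBR. The 5 rows named as pseudogenes, also outside the set, held 475 counts over the 3 libraries, most of them on Rpl10-ps3 and Rpl9-ps6.

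The difference between libraries did not have the same direction in all clusters. Nav1 KO over C57BL/6 was 1.07 in cluster 8 (microglia-like with oligodendrocyte precursor markers) and 0.810 in astrocyte-like cluster 6. BTBR over C57BL/6 was 1.04 in excitatory cluster 1 and 0.846 in cluster 6. BTBR over Nav1 KO was 1.10 in cluster 1 and 0.816 in olfactory ensheathing glia-like cluster 12. These are the furthest in each direction among clusters with at least 50 nuclei in both libraries. The median nucleus went the other way in cluster 12, with 0.508% in BTBR (57 nuclei) and 0.465% in Nav1 KO. It also did in cluster 8, with 0.651% in Nav1 KO and 0.660% in C57BL/6. In clusters 1 and 6 the medians had the direction of the sums. With 1 library in a group the difference between clusters was not tested. The finer excitatory-like clusters that shared leading genes such as Ndst4 or Tox with cluster 1 had lower sums in BTBR than in C57BL/6. These were 0.466%, 0.365% and 0.434% against 0.498%, 0.376% and 0.443%. The last of these clusters had the striatal medium spiny neuron list first, at a median fold of 1.60, and may be mixed. The finer excitatory-like cluster of low depth was higher in BTBR, at 0.751% against 0.664%. How the nuclei of cluster 1 were divided was not examined. In the finer clustering the microglia-like part of cluster 8 had 0.598% in C57BL/6 and 0.576% in Nav1 KO. The oligodendrocyte precursor-like part had 0.706% and 1.11%, so the higher value of Nav1 KO in cluster 8 was not seen in the microglia-like part. The finer astrocyte-like cluster with Slc17a7 at 131 CPM had 0.647% in C57BL/6 and 0.653% in Nav1 KO. That with Slc17a7 at 526 CPM had 0.688% and 0.516%, so only there was the sum lower in Nav1 KO. Their median nuclei were lower in Nav1 KO, at 0.476% against 0.518% and at 0.438% against 0.483%.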

How the results depend on the processing

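No paired analysis was possible because each group is 1 library with no replicate numbers. The ratios of classes of nuclei over the 3 libraries are geometric means, 2.03 for depth, 3.46 for mt- counts, 1.31 for non-neuronal over neuronal and 1.61 for inhibitory over excitatory nuclei, and these kept their direction under every alternative run. The ratios between libraries are given as Nav1 KO over C57BL/6 (main 0.941), BTBR over C57BL/6 (0.986) and BTBR over Nav1 KO (1.05).

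Under 5% mt- counts, Nav1 KO over C57BL/6 was 0.935 and BTBR over Nav1 KO 1.06, depth 1.97 and non-neuronal 1.22. With no mt- limit the library ratios were 0.901, 1.01 (the opposite direction) and 1.12, and depth 3.19. In nuclei of 1000 to under 4000 UMIs Nav1 KO over C57BL/6 was 1.04 and BTBR over Nav1 KO 0.944, both in the opposite direction, with mt- 2.58, non-neuronal 1.22, inhibitory 1.49 and 2 genes past 1.5-fold between Nav1 KO and C57BL/6 (Rpl29 and Rpl41). Without mt- counts in the denominator the mt- ratio was 3.71. Malat1 stayed in the denominator in every alternative run. Without the 5 most counted genes the library ratios were 0.934, 0.958 and 1.03, non-neuronal 1.34 and inhibitory 1.67. As a mean over nuclei they were 0.975, 0.979 and 1.00, with depth 2.07, mt- 3.08, non-neuronal 1.23 and inhibitory 1.47. Without the 10% of nuclei with the highest doublet scores Nav1 KO over C57BL/6 was 0.930 and BTBR over Nav1 KO 1.06, depth 2.08 and non-neuronal 1.43. With the same cluster mixture the library ratios were 0.935, 0.971 and 1.04, and with the same mt- mixture 0.953, 1.04 (the opposite direction) and 1.09, with depth 1.67. Resolution 0.5 gave non-neuronal 1.33 and inhibitory 1.59, clustering with ribosomal protein and mt- genes 1.21 and 1.81, and clustering each library alone inhibitory 1.64. At 2-fold, 1 gene (Rpl29) remained in each comparison with BTBR, against 6 and 3 at 1.5-fold, and 4.95% and 2.92% of all genes were past 2-fold.

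Within excitatory nuclei, an alternative chosen after seeing the data, the library ratios were 0.887, 0.961 and 1.08, depth 2.37, mt- 2.84, and 2 genes (Rplp1 and Rpl17) lay past 1.5-fold between Nav1 KO and C57BL/6. The cause of these shifts was not tested. Depth limits the rare paralogs and the smallest clusters.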
